A study of Mus musculus with 6 samples.

Results

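The contractile genes of smooth muscle examined here were 10 genes chosen by symbol, namely Acta2, Myh11, Tagln, Cnn1, Myl9, Des, Pln, Casq2, Lmod1 and Tpm2, of the 31053 genes in the count matrices. All 10 symbols were found once in each of 6 libraries. In the 10x Genomics Chromium 3' system used for the libraries, a barcode marks the cell and a unique molecular identifier (UMI) the single mRNA molecule that was captured. Of these, 4 libraries were cortical surface-associated (CSA1 to CSA4), made by digesting the surface of the dissected cortex, and 2 were bone-associated (BA1 and BA2), made from the tissue that lines the inside of the skull. All 6 came from adult C57BL6 mice without a treatment or transgene, with tissue of several mice pooled in each library, so the library is the replicate and p-values measure the spread between these pools. The mice were not perfused, and live nucleated cells (DRAQ5-positive, propidium iodide-negative) were sorted before capture.

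Contraction of smooth muscle rests on thin filaments of actin and tropomyosin that slide over filaments of myosin when calcium enters the cell and the regulatory light chain of myosin is phosphorylated. Calcium is taken back up into the sarcoplasmic reticulum by a pump that phospholamban restrains, and it is held there by calsequestrin. In the brain and its coverings these proteins are known from the smooth muscle of arteries, arterioles and veins, whereas pericytes sit on capillaries and fibroblasts form the sheets of the meninges.

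The 3 classes compared were smooth muscle-like, pericyte-like and fibroblast-like cells, where "-like" marks a class rebuilt from clusters and named by marker genes. The 10 genes, together with 49 companion genes of contraction, entered neither the clustering nor the naming. The smooth muscle-like class held 707 cells, all but 3 of them from CSA1, CSA2, BA1 and BA2 (107, 175, 169 and 253 cells). The pericyte-like class held 350 cells (47, 82, 35 and 107 in CSA1 to CSA4, 17 and 62 in BA1 and BA2) and the fibroblast-like class 570 (79, 146, 33 and 30, then 33 and 249). All 14 smooth muscle markers used for naming, among them Mustn1, Sncg and Itga8, were in at least 20% of the smooth muscle-like cells of both preparations, and 6 skeletal muscle markers summed to at most 10.3 CPM in any of these classes, where CPM is the UMIs of a gene per 1000000 UMIs of a class in a library. A further 341 cells lay in clusters that pericyte markers named. Ccl19 or Colec11, but no pericyte marker, was among the 10 leading genes of these clusters. In BA their fibroblast markers summed higher than their pericyte markers. These Ccl19-led cells were set apart after the clusters had been seen and are described on their own.

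Depth was 8408685 to 56169736 UMIs in a library, and 8680 cells were kept, with a median of 5461 to 9556 UMIs. CSA3 and CSA4 stood apart, as hemoglobin genes took 84.6% and 71.9% of their UMIs, against 0.0908% to 0.520% in the other libraries, and the pericytes of CSA3 and CSA4 still held 179810 and 173242 CPM of red blood cell markers. Neither library gave the 10 smooth muscle-like cells needed to enter a test, so all smooth muscle values rest on 2 libraries of each preparation. Any 2 libraries shared at most 2 cell barcodes. T or NK cell-like cells, which should lack these mRNAs, held 0.962 to 150.2 CPM of the 10 genes together, which is taken as the level of free RNA.

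The actin and tropomyosin of the thin filament were abundant in smooth muscle and separated it from both other classes. Acta2 (ENSMUSG00000035783, chr19:34241090-34255590 on the minus strand of mm10) encodes smooth muscle alpha-actin. It measured 19347 and 22188 CPM in the smooth muscle of CSA1 and CSA2, and 14446 and 13939 CPM in that of BA1 and BA2. In pericytes it measured 31.8, 96.8, 94.7 and 40.9 CPM in CSA1 to CSA4, then 199 and 925 CPM in BA1 and BA2. Fibroblasts held 38.6, 39.1, 47.7 and 0 CPM in the CSA libraries and 157 and 84.6 CPM in the BA libraries. The smooth muscle libraries therefore lay above every pericyte and fibroblast library, and the fibroblast values of CSA1 and CSA2 lay near those of the T or NK cells of the same libraries (40.8 and 58.3 CPM). The pericytes of CSA1, at 31.8 CPM, also lay at this level of free RNA, whereas those of CSA2, at 96.8 CPM, lay above it.

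Tpm2 (ENSMUSG00000028464, chr4:43514711-43523765, minus strand), the beta chain of tropomyosin that lies along the actin filament, measured 5677 and 6399 CPM in CSA and 5609 and 5272 CPM in BA smooth muscle. Its pericyte values were 395, 406, 308 and 477 CPM in CSA and 540 and 739 CPM in BA, and its fibroblast values 97.2, 91.3, 47.7 and 27.8 CPM in CSA and 220 and 161 CPM in BA. The order smooth muscle, pericytes, fibroblasts held without overlap for Tpm2, and it did so too for Lmod1 within the BA but not the CSA libraries. Lmod1 (ENSMUSG00000048096, chr1:135324807-135368065, plus strand), leiomodin, which nucleates actin filaments, measured 942 and 749 CPM in CSA and 990 and 762 CPM in BA smooth muscle. Pericytes held 141, 80.7, 136 and 90.9 CPM in CSA, with 56.9 and 70.9 CPM in BA. In fibroblasts the values were 88.0, 65.2, 73.7 and 5.57 CPM in CSA against 8.80 and 4.87 CPM in BA, so CSA fibroblasts and CSA pericytes overlapped in Lmod1.

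The actin-binding proteins transgelin and calponin differed in how sharply they marked smooth muscle. Tagln (ENSMUSG00000032085, chr9:45929619-45936058, minus strand) measured 15261 and 14151 CPM in CSA and 15345 and 12646 CPM in BA smooth muscle. Its pericyte values were 59.0, 35.0, 53.3 and 27.3 CPM in CSA and 66.4 and 746 CPM in BA. Fibroblasts held 55.6, 51.5, 8.68 and 5.57 CPM in CSA and 276 and 197 CPM in BA, so pericytes and fibroblasts overlapped for Tagln in both preparations. Cnn1 (ENSMUSG00000001349, chr9:22099216-22109630, plus strand), calponin 1, measured 501 and 383 CPM in CSA and 354 and 214 CPM in BA smooth muscle, while a single Cnn1 UMI was found in all pericytes (2.69 CPM in CSA2, 0 in the other 5 libraries) and fibroblasts held at most 1.35 CPM. Over the 4 libraries with both classes, the ratio of smooth muscle to pericytes was 380 (95% counting interval 68.1 to 15004).

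Myosin set the classes apart unequally by chain. Myh11 (ENSMUSG00000018830, chr16:14194535-14291372, minus strand), the smooth muscle myosin heavy chain, measured 6021 and 3502 CPM in CSA and 5993 and 3023 CPM in BA smooth muscle. Pericytes held 81.7, 32.3, 35.5 and 38.6 CPM in CSA and 322 and 186 CPM in BA, and fibroblasts 10.8, 9.31, 0 and 0 CPM in CSA and 10.6 and 3.25 CPM in BA. CSA1, CSA2, BA1 and BA2 therefore each had the order smooth muscle, pericytes, fibroblasts for Myh11. In CSA3 and CSA4, without a smooth muscle value, pericytes lay above fibroblasts. Myl9 (ENSMUSG00000067818, chr2:156775420-156781658, plus strand), the regulatory light chain that is phosphorylated to start contraction, measured 7115 and 6716 CPM in CSA and 6330 and 4782 CPM in BA smooth muscle. Pericytes kept 1730, 1538, 1219 and 1317 CPM of Myl9 in CSA and 995 and 1235 CPM in BA, well above the fibroblasts (72.5, 99.95, 56.4 and 16.7 CPM in CSA, 192 and 231 CPM in BA).

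The intermediate filament gene Des and the calcium gene Casq2 did not follow Acta2, whereas the calcium gene Pln did. Des (ENSMUSG00000026208, chr1:75360329-75368579, plus strand) encodes desmin, which ties the contractile units together. It measured 1205 and 1255 CPM in CSA smooth muscle but 599 and 601 CPM in BA smooth muscle. Pericytes had the reverse, with 268, 315, 272 and 223 CPM in CSA and 588 and 599 CPM in BA. Smooth muscle and pericytes thus lay far apart for Des on the cortical surface and at the same level in the bone-associated libraries, and fibroblasts stayed at 0 to 21.1 CPM.

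Pln (ENSMUSG00000038583, chr10:53337667-53345987, plus strand), phospholamban, measured 1214 and 1364 CPM in CSA and 1057 and 1100 CPM in BA smooth muscle, with 0 to 4.89 CPM in any library of pericytes or fibroblasts. The ratio of smooth muscle to pericytes was 651 (180 to 5380), resting on 2 pericyte UMIs. Casq2 (ENSMUSG00000027861, chr3:102086415-102146514, plus strand), calsequestrin 2, went another way. Pericytes held 49.9, 105, 82.9 and 38.6 CPM in CSA and 104 and 48.9 CPM in BA, and smooth muscle 17.3 and 10.4 CPM in CSA and 109 and 74.5 CPM in BA. The pericyte UMIs came from few cells, 4 of 47, 13 of 82, 3 of 35 and 9 of 107 in CSA1 to CSA4 and 3 of 17 and 11 of 62 in BA1 and BA2. In smooth muscle, Casq2 was in 10 of 107 and 17 of 175 cells of CSA1 and CSA2 and in 81 of 169 and 93 of 253 of BA1 and BA2. The smooth muscle of CSA1 and CSA2 was below every pericyte library for Casq2, and no Casq2 UMI was found in any fibroblast. Against the floor of 3 UMIs over the group, Casq2 was at least 123-fold higher in smooth muscle and at least 151-fold higher in pericytes than in fibroblasts. Casq2 lies within a locus with 2 other genes on its strand, and Pln, Tagln, Des and Lmod1 each overlap 1 or 2 genes on the opposite strand. The sources used here do not state whether the counts used the strand.

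**Figure D1:**
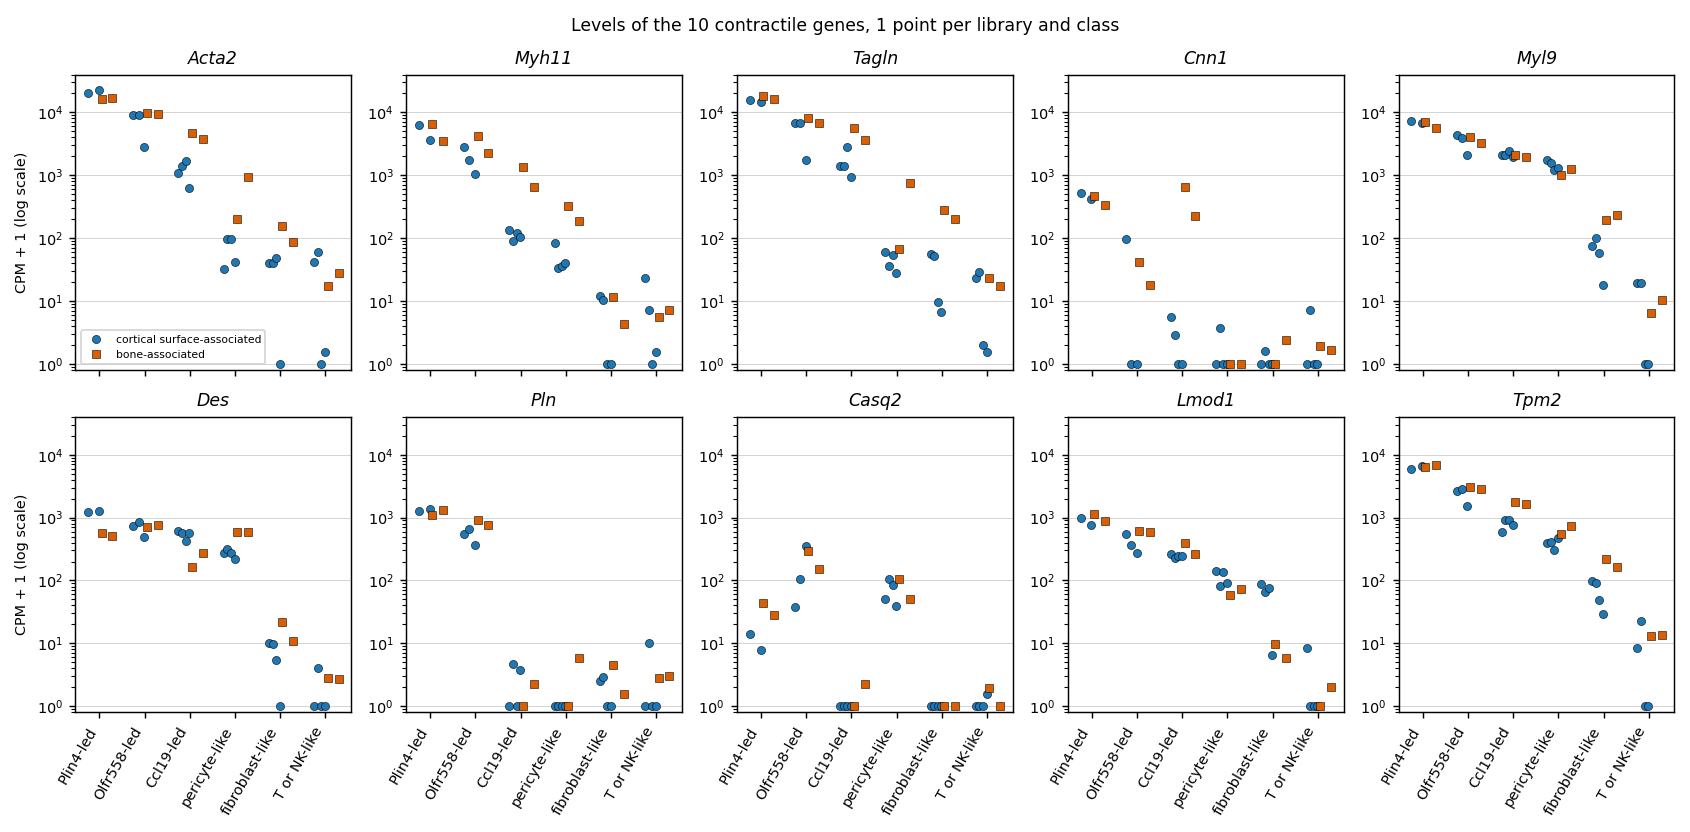
Levels of the 10 contractile genes (CPM plus 1, log axis) with 1 point per library with at least 10 cells, for Plin4-led and Olfr558-led cells (both described further on), Ccl19-led, pericyte-like, fibroblast-like and T or NK-like cells, with circles for cortical surface-associated and squares for bone-associated libraries. Plin4-led cells lie above the fibroblasts for all 10 genes, Des of the BA pericytes (588 and 599 CPM) lies among the BA smooth muscle values, and Casq2 is at 0 in every fibroblast library.

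Promoters of these genes are known for CArG boxes, the sites of serum response factor, made of CC, then 6 letters that are each A or T, then GG. RefSeq windows (GRCm38.p6, 250 bases before to 50 after a start site) were held for 8 of the 10 genes, and Tagln and Myh11 had no window. A CArG box on either strand was in 1 of the 8, Myl9, and in 1.63% of all 32851 windows. Allowing 1 of the inner letters to be C or G, a looser form chosen after the first search, gave 8.50% of all windows and 2 of the 8, Acta2 and Myl9. The 180 bases before the start site are shown for both, since these are the windows with a match, with the strict box and the looser boxes in capitals. The strict box of Myl9 begins 161 bases before the start and its looser box 99 bases before it, and those of Acta2 begin 84 and 34 bases before it. The Myl9 stretch is chr2:156775284-156775463 (plus strand) and that of Acta2 chr19:34255374-34255553 (minus strand), each written 5′ to 3′ along its gene. The distances count from RefSeq start sites, which differ from the GENCODE gene starts behind the positions given above. The Acta2 stretch lies within the gene span given above, and the Myl9 stretch crosses the start of its span. A match is a description of these letters only.

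Myl9: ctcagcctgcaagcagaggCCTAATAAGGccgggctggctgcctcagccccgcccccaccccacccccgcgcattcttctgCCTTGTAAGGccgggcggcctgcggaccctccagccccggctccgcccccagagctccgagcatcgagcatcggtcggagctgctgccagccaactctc
Acta2: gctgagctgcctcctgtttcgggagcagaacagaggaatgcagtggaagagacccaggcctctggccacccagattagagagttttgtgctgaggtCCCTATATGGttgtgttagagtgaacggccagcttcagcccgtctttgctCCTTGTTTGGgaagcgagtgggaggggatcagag

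Smooth muscle was compared with pericytes in the 4 libraries that held at least 10 cells of both, from UMIs summed per library and class, in edgeR's quasi-likelihood test with the library as a block. The call rule asked for an adjusted p (Benjamini-Hochberg) under 0.05 together with a log2 fold change of 1.3 or more in either direction. Of the 10 genes, 9 were called, all higher in smooth muscle, against 14.7% of 8116 genes called in either direction, 8.27% higher and 6.41% lower in smooth muscle. The median log2 fold change of the 10 was 4.66, against 0.00 over all genes. Cnn1 and Pln passed the gene filter (a UMI in over 10% of the cells of either class) only through smooth muscle. Their calls could therefore only be higher and add no support. The count of 9 and the median of 4.66 include these genes, so neither is support as a whole. Acta2 was 126-fold higher (log2 6.97, SE 0.76, adjusted p 1.8e-05), Tagln 163-fold (log2 7.35, SE 0.74, adjusted p 9.0e-06) and Myh11 44.99-fold (log2 5.49, SE 0.46, adjusted p 2.3e-06). The smaller differences were those of Tpm2 at 14.3-fold, Lmod1 at 12.2-fold and Myl9 at 5.74-fold. Des was 2.58-fold higher (log2 1.37, SE 0.37, adjusted p 0.015), a call that ended without CSA1 (log2 0.96, adjusted p 0.094) and without CSA2 (log2 1.01, adjusted p 0.086). Casq2 did not pass, at a log2 fold change of -0.62 (SE 0.48, adjusted p 0.40), and it had the other sign without CSA2 (0.23).

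Against fibroblasts, all 10 genes were called higher in smooth muscle, where 24.3% of 9569 genes were called and 10.4% were higher. The median of the 10 was 7.70 on the log2 scale, against -0.03 over all genes. Cnn1, Pln, Casq2, Myh11 and Des passed the gene filter only through smooth muscle. Their calls could therefore only be higher and add no support. The count of 10 and the median of 7.70 include these genes, so neither is support as a whole. The other genes, Acta2, Tagln, Myl9, Tpm2 and Lmod1, had log2 fold changes of 8.20, 7.19, 5.73, 5.64 and 5.20. Myh11 was 666-fold higher (log2 9.38, SE 0.36, adjusted p 3.4e-05), Acta2 294-fold (log2 8.20, SE 0.64, adjusted p 1.9e-04) and Des 86.2-fold (log2 6.43, SE 0.43, adjusted p 1.1e-04). Lmod1 had the smallest difference at 36.8-fold (log2 5.20, SE 0.83, adjusted p 0.0033).

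Pericytes and fibroblasts could be compared in all 6 libraries. Of the 8 genes detected well enough to be tested, 7 were called higher in pericytes, against 16.9% of 9028 genes called and 6.29% higher. The tested genes had a median log2 fold change of 2.85, against -0.04 over all genes. Casq2, Des and Myh11 passed the gene filter only through pericytes. Their calls could therefore only be higher and add no support. The count of 7 and the median of 2.85 include these genes, so neither is support as a whole. The other genes tested, Acta2, Tagln, Myl9, Lmod1 and Tpm2, had log2 fold changes of 1.38, 0.30, 3.60, 1.43 and 2.10. Des was 37.7-fold higher (log2 5.23, SE 0.27, adjusted p 1.1e-08), Myh11 15.9-fold (log2 3.99, SE 0.53, adjusted p 7.1e-05), Myl9 12.1-fold (log2 3.60, SE 0.37, adjusted p 6.9e-06) and Tpm2 4.28-fold (log2 2.10, SE 0.25, adjusted p 2.9e-05). Tagln did not pass, at 0.30 on the log2 scale (SE 0.49, adjusted p 0.71). The calls of Acta2 (log2 1.38, adjusted p 0.044) and Lmod1 (log2 1.43, adjusted p 0.031) ended when BA2 was left out (log2 0.67, adjusted p 0.15, and 0.85, adjusted p 0.069), and also without CSA3 or CSA4. For Acta2 the call ended without CSA2 too, and for Lmod1 without BA1. With each cell thinned to 1500 UMIs, 4 of the genes were called.

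Shares of cells with a UMI were read after depth was made equal, since a fibroblast of the BA libraries had a median of 14796.5 UMIs and a pericyte of the CSA libraries 3912. Acta2 was in 100% of the smooth muscle cells of both preparations, also after thinning to 1500 UMIs. It was in 17.0% (exact binomial 95% interval 12.7 to 22.0) of CSA pericytes, 20.8% (16.3 to 26.0) of CSA fibroblasts and 4.65% (3.03 to 6.78) of CSA T or NK cells, and thinning brought these to 7.25%, 4.01% and 0.931%. The T or NK cells (median 5951.5 and 6103 UMIs in CSA and BA) give the background of free RNA. In CSA they came mostly from CSA3 and CSA4 (165 and 304 cells, against 38 and 31 in CSA1 and CSA2). The T or NK cells of CSA1 and CSA2 held 119 and 150 CPM of the 10 genes together. Those of CSA3 and CSA4 held 0.962 and 2.18 CPM. CSA fibroblasts came mostly from CSA1 and CSA2 (79 and 146 cells, against 33 and 30). The CSA background share therefore understates the free RNA of CSA1 and CSA2. In BA the shares were 38.0% (27.3 to 49.6) of pericytes, 34.0% of fibroblasts and 14.3% (11.6 to 17.4) of T or NK cells, and 25.6%, 11.5% and 4.33% after thinning. Intervals cover counting error only, and 228 cells of under 1500 UMIs over all classes were left out of the thinned shares.

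Cells differed in how many of the 10 genes they held at once. After thinning, the median smooth muscle cell held UMIs of 8 genes in CSA and 7 in BA, and 99.3% and 98.6% of these cells held at least 5. The median pericyte held 2 in both preparations, and 31.3% of CSA and 42.3% of BA pericytes held at least 3. Fibroblasts had a median of 0 and 1, with 1.09% and 6.81% at 3 or more, and none of the 537 CSA and 601 BA T or NK cells reached 3.

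**Figure D2:**
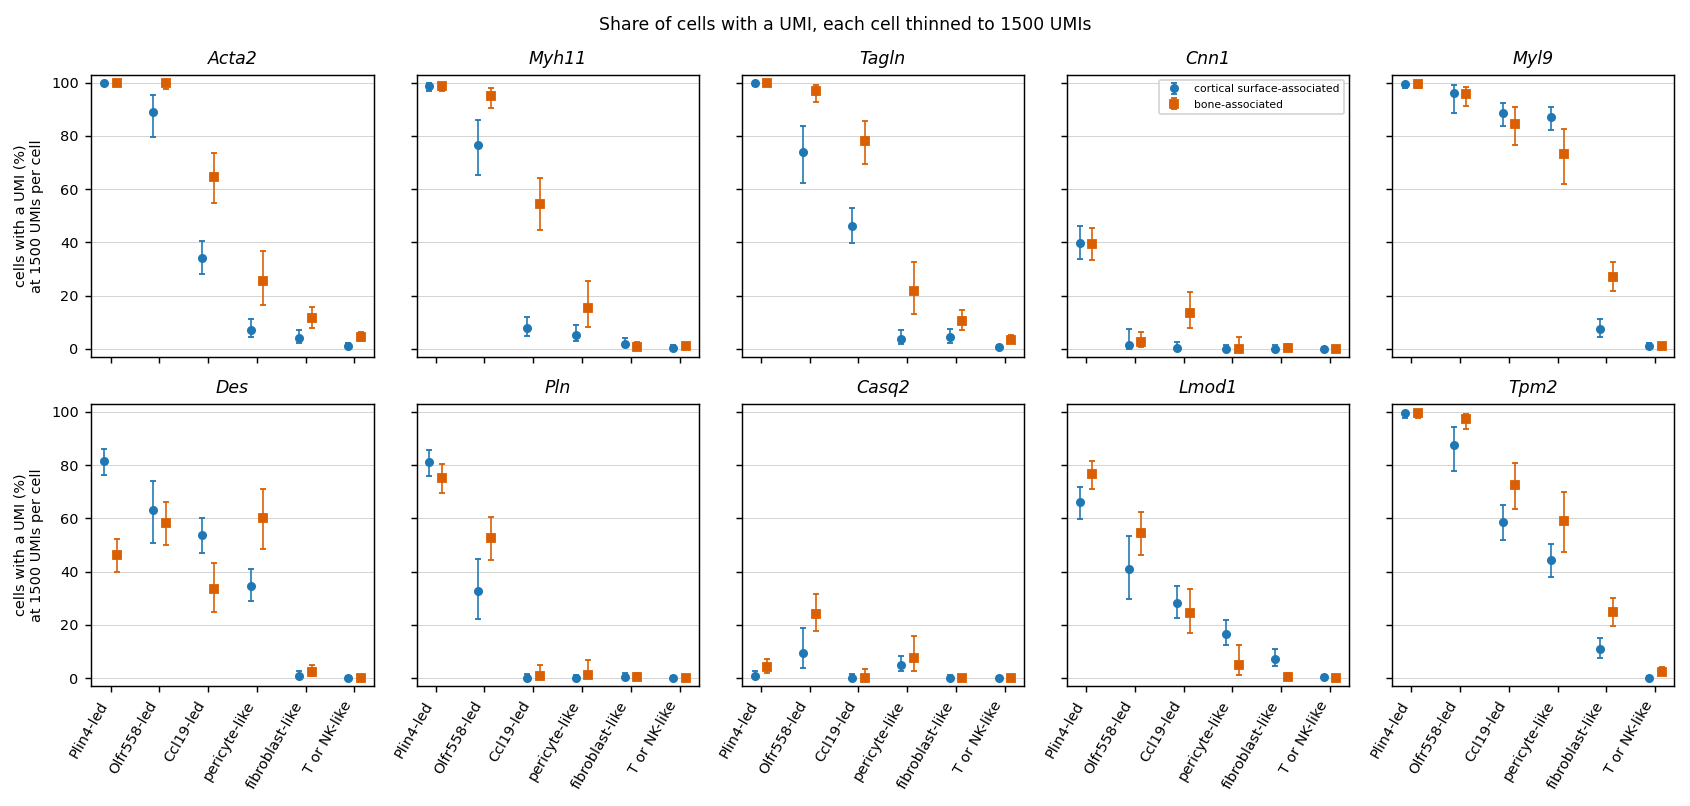
Percent of cells with a UMI of each of the 10 genes after thinning each cell to 1500 UMIs, by class and preparation (circles CSA, squares BA), with exact binomial 95% intervals as error bars. Acta2 is in 25.6% of BA and 7.25% of CSA pericytes, Casq2 is highest in Olfr558-led cells at 9.59% in CSA and 24.1% in BA, and Acta2 is in 0.931% and 4.33% of the T or NK-like cells. Most CSA T or NK-like cells came from CSA3 and CSA4.

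Clusters led by smooth muscle markers were of 2 kinds in both preparations. One kind was led by Plin4 (261 CSA and 264 BA cells). The other was led by Olfr558, an odorant receptor gene (73 CSA and 158 BA cells). Of the CSA Olfr558-led cells, 24 were in the smooth muscle-like class (6 of 18 in CSA1 and 15 of 33 in CSA2) and the rest lay in sub-clusters that stayed unnamed because pericyte markers led them too. The pericyte markers summed to 374 CPM in CSA and 544 CPM in BA Plin4-led cells and to 2792 and 1922 CPM in Olfr558-led cells. Since the split was made after the clusters had been seen, and neither split used the 10 genes, the values are given within each library without a test.

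Acta2 measured 20127, 23052, 16136 and 16691 CPM in Plin4-led cells of CSA1, CSA2, BA1 and BA2, and 8935, 8917, 9653 and 9468 CPM in Olfr558-led cells. It was higher in the Plin4-led cells in 4 of 4 libraries, as were Myh11, Tagln, Cnn1, Myl9, Pln, Lmod1 and Tpm2. The share of all genes with the same direction in 4 of 4 libraries, at any fold, was not counted. The direction alone is therefore a description. Cnn1 had the widest gap, with 528, 414, 464 and 335 CPM in Plin4-led cells against 94.9, 0, 40.6 and 17.0 CPM in Olfr558-led cells. Casq2 had the opposite order in 4 of 4 libraries, with 13.2, 6.85, 42.3 and 27.6 CPM in Plin4-led and 36.9, 106, 296 and 151 CPM in Olfr558-led cells. The 18 Olfr558-led cells of CSA4, a library without Plin4-led cells, held 347 CPM of Casq2 and no Cnn1. Des was split by preparation, at 1243 and 1286 CPM in Plin4-led against 743 and 865 CPM in Olfr558-led cells of CSA1 and CSA2, but 562 and 508 against 704 and 753 CPM in BA1 and BA2.

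The ratio of the library means passed the fold of 1.3 on the log2 scale for Cnn1 (3.48) and Casq2 (-2.66), both with 1 direction in every library. Such genes made up 3.91% of 8103 genes, with 1.3% higher and 2.62% lower in Plin4-led cells. The other 7 genes with 1 direction had ratios of 0.78 to 1.18. The median share of a thinned cell's UMIs taken by the 10 genes together was 5.73%, 5.73%, 5.53% and 5.07% in Plin4-led cells of CSA1, CSA2, BA1 and BA2. In Olfr558-led cells of the same libraries it was 2.53%, 2.40%, 3.13% and 2.47%. The Olfr558-led cells of CSA4, a library without Plin4-led cells, had a median of 0.933%.

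**Figure D3:**
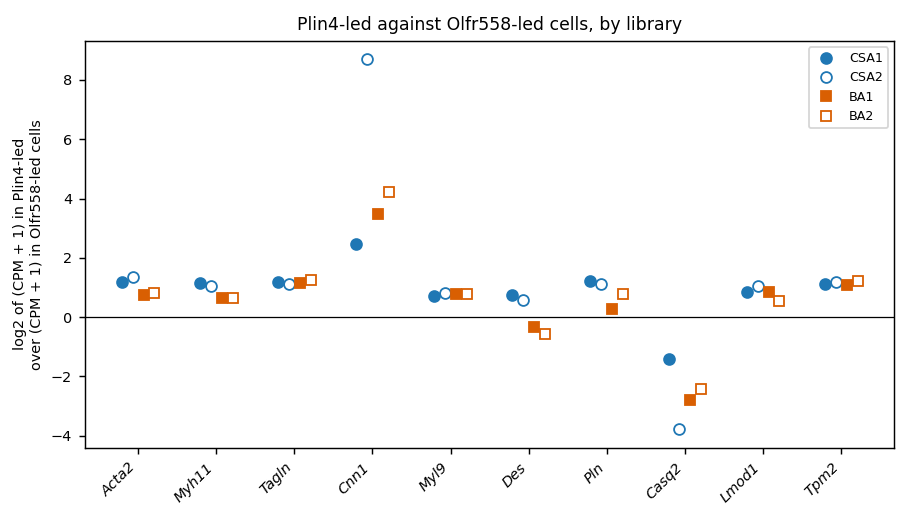
Log2 of the ratio of CPM plus 1 in Plin4-led over Olfr558-led cells, also those outside the smooth muscle-like class, for each of the 10 genes, with 1 point for each of CSA1, CSA2, BA1 and BA2. Points lie above 0 in all 4 libraries for 8 genes, below 0 in all 4 for Casq2, and on both sides for Des.

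Within the smooth muscle-like cells, Acta2 varied from cell to cell more closely with some of the 10 genes than with others. As a description over the 106 to 253 thinned cells of a library, Pearson's r of Acta2 was 0.57 to 0.69 with Tagln, 0.42 to 0.66 with Myl9 and 0.45 to 0.61 with Tpm2. Acta2 and Casq2 had r of -0.36 in BA1, -0.13 in BA2 and 0.01 in CSA1, and no thinned cell of CSA2 held Casq2. The r of Acta2 was 0.07 and 0.18 with Myh11 and 0.08 and 0.18 with Lmod1 in CSA1 and CSA2, and 0.32 to 0.38 with these 2 genes in BA. With Cnn1, r was 0.19 to 0.38, with Pln 0.03 to 0.32 and with Des -0.03 to 0.13. These cells share a library, and the counts of a thinned cell share 1 fixed total. Before thinning, Olfr558-led cells were 6 of 107 and 15 of 175 smooth muscle-like cells in CSA1 and CSA2. They were 52 of 169 and 106 of 253 in BA1 and BA2. Genes with few UMIs in a thinned cell, such as Cnn1 and Casq2, carry more counting error. The part of this mixture or of UMI number in r was not tested.

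Between the preparations, smooth muscle differed in 1 of the 10 genes by the call rule. This comparison of CSA1 and CSA2 with BA1 and BA2 called 5.77% of 8305 genes, 1.78% higher and 3.99% lower in CSA, and the 10 genes had a median log2 difference of 0.13 against 0.01 over all genes. Casq2 was 7.13-fold lower in the CSA libraries (log2 -2.83, SE 0.31, adjusted p 1.1e-05), and its values did not overlap. The share of cells with Casq2 was 9.82% (6.63 to 13.9) in CSA and 41.2% (36.5 to 46.1) in BA smooth muscle, or 1.06% and 11.7% after thinning. Casq2 thus passed the gene filter of 10% only through BA, so its call could only be lower in CSA. The Olfr558-led cells made up 24 of the 285 CSA and 158 of the 422 BA smooth muscle-like cells. In Plin4-led cells alone Casq2 was lower in CSA (log2 -1.97, adjusted p 2.8e-04). It was in 6.93% and 6.88% of the Plin4-led cells of CSA1 and CSA2, and in 35.0% and 20.4% of those of BA1 and BA2. Casq2 thus again passed the gene filter only through BA, so this call too could only be lower and adds no support. With every Olfr558-led sub-cluster counted as smooth muscle, which brought CSA4 in, Casq2 was at -1.11 (adjusted p 0.71). Des was 1.94-fold higher in CSA (log2 0.96, SE 0.24, adjusted p 0.019), below the fold the rule asks for. The other 8 genes ranged from -0.13 for Lmod1 to 0.56 for Cnn1, with adjusted p of 0.24 or more.

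Pericytes had the wider difference. CSA pericytes were lower in 3 of the 8 genes tested, Acta2, Tagln and Myh11, in a comparison that called 6.14% of 7085 genes, 2.02% higher and 4.12% lower in CSA. The 8 genes had a median of -0.89, against 0.01 over all genes. Acta2 was 9.37-fold lower (log2 -3.23, SE 0.41, adjusted p 3.7e-06), Tagln 11.4-fold (log2 -3.52, SE 0.47, adjusted p 7.0e-06) and Myh11 5.11-fold (log2 -2.35, SE 0.32, adjusted p 1.2e-05). The mean in CSA was 66.0 ± 34.5 CPM for Acta2, 43.6 ± 14.97 CPM for Tagln and 47.0 ± 23.3 CPM for Myh11 (SD, n = 4). Acta2 of the CSA1 pericytes was below that of the CSA1 T or NK cells, so it lay at the level of free RNA. T or NK cells held 119 and 150 CPM of the 10 genes together in CSA1 and CSA2, and 0.962 and 2.18 CPM in CSA3 and CSA4. The low Tagln and Myh11 values of CSA pericytes were not set against the free RNA of each gene. Des was 2.17-fold lower (log2 -1.12, SE 0.24, adjusted p 0.0031), below the fold the rule asks for, and Myl9 (0.39), Tpm2 (-0.67), Lmod1 (0.68) and Casq2 (0.08) did not pass. The median thinned pericyte had 0.267% of its UMIs in the 10 genes together, in CSA and in BA alike. At least 5 of the 10 genes were held by 2 of 262 CSA and 12 of 78 BA thinned pericytes. The fold changes are of summed UMIs, and the part of such cells in them was not tested.

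Acta2 was in 6 of 17 BA1 and 24 of 62 BA2 pericytes (21 and 378 UMIs), against 6 of 47, 30 of 82, 3 of 35 and 7 of 107 in CSA1 to CSA4 (7 to 36 UMIs). Tagln was in 3 of 17 and 28 of 62 cells of BA1 and BA2, and Myh11 in 7 of 17 and 27 of 62, against 10 to 13 cells of CSA1, CSA2 and CSA4 and 4 of CSA3 for Myh11. Without BA2 only Myh11 was still called (log2 -2.58, adjusted p 3.4e-04), with Acta2 at -1.37 (adjusted p 0.18) and Tagln at -0.47 (adjusted p 0.80), and with each library clustered on its own none of the 3 was called (-1.57, -1.31 and -1.59 for Acta2, Tagln and Myh11, adjusted p 0.32, 0.56 and 0.068). Smooth muscle and fibroblast markers moved with these genes. The smooth muscle sum over 14 markers was 1962 and 1768 CPM in BA pericytes and 568 to 1112 CPM in CSA pericytes, with 9 and 5 of the 14 in at least 20% of cells and 0 and 1 at 0. Fibroblast markers summed to 2332 and 1996 CPM in BA pericytes and to 622 to 1048 CPM in CSA pericytes. Pericyte markers summed to 5403 and 5222 CPM in BA1 and BA2, against 7785, 7761, 4670 and 6008 CPM in CSA1 to CSA4. The part of these lists in the result was not tested. The red blood cell markers, at 5.38 to 179810 CPM over the CSA libraries and 47.4 and 75.8 CPM in BA, followed CSA3 and CSA4. Their part in the result was not tested, and leaving hemoglobin genes out gave 3 called genes as before.

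**Figure D4:**
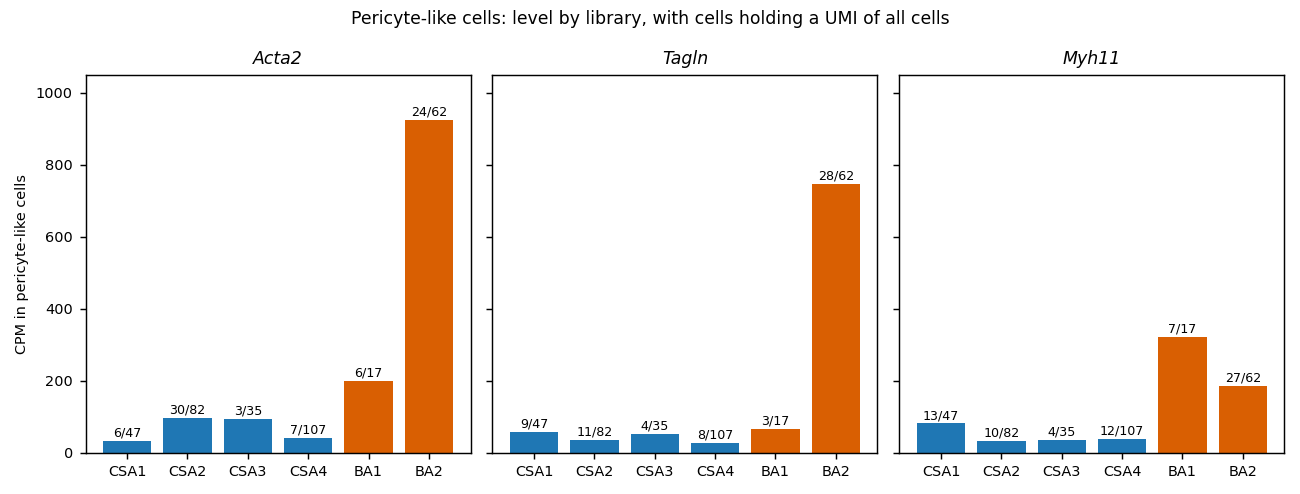
CPM of Acta2, Tagln and Myh11 in the pericyte-like cells of each library (bars from 0), with the number of cells holding a UMI of the gene over all pericyte-like cells above each bar. Acta2 and Tagln are highest in BA2 (925 and 746 CPM) and Myh11 in BA1 and BA2 (322 and 186 CPM), and the bars of CSA1 to CSA4 stay at 96.8 CPM or less.

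Fibroblasts held little of these mRNAs, and 5 of the 10 genes were detected well enough to be tested between the preparations. The paper interprets the Pdgfra-positive mesenchymal cells of CSA as mainly leptomeningeal and those of BA as dural. The preparations may therefore not compare the same kind of fibroblast. Acta2 (log2 -1.63, SE 0.41, adjusted p 0.0096), Tagln (log2 -2.50, SE 0.39, adjusted p 2.2e-04) and Myl9 (log2 -1.52, SE 0.34, adjusted p 0.0039) were lower in CSA, while Lmod1 was 11.5-fold higher (log2 3.52, SE 0.54, adjusted p 1.7e-04). Lmod1 passed the gene filter only through CSA, so its call could only be higher and adds no support. This comparison called 13.5% of 9574 genes, 5.84% higher and 7.71% lower in CSA. The 5 genes, Lmod1 among them, had a median of -1.52 against 0.01 over all genes. Tpm2 was 2.40-fold lower (log2 -1.26, adjusted p 0.0086), below the fold the rule asks for. Tagln was in 14 of 33 BA1 and 96 of 249 BA2 fibroblasts, against 19 of 79, 45 of 146, 2 of 33 and 1 of 30 in CSA1 to CSA4. CSA3 and CSA4 stood apart within CSA, with Tagln at 8.68 and 5.57 CPM against 55.6 and 51.5 CPM in CSA1 and CSA2, and with red blood cell markers at 100436 and 157017 CPM against 6.17 and 1.24 CPM there and 33.4 and 38.7 CPM in BA. The 3 lower genes and Lmod1 were called without CSA3, without CSA4 and with hemoglobin genes left out. The Acta2 call ended without BA1 (log2 -1.24, adjusted p 0.099). The Myl9 call ended without BA2 (log2 -1.27, adjusted p 0.093).

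Lmod1 was spread over many fibroblasts. It was in 29 of 79 cells of CSA1 and 56 of 146 cells of CSA2, and in 34.0% (28.6 to 39.8) of all CSA fibroblasts, against 6.03% (3.55 to 9.48) in BA and 0.372% and 0.499% of T or NK cells. After thinning the shares were 7.30% and 0.358%. CSA4 was the exception, with 1 Lmod1 UMI in 30 cells. The call held with each library left out, but with each library clustered on its own the difference was -0.47 (adjusted p 0.83). There BA1 gained a fibroblast-like cluster of 18 cells, all Ccl19-led in the joint clustering, and its Lmod1 measured 200 CPM in place of 8.80 CPM.

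Whether smooth muscle stood above pericytes by the same amount in both preparations was tested as an interaction in the 4 libraries with both classes, which called 3.28% of 8798 genes, 1.85% with a wider and 1.43% with a narrower gap in CSA. For 5 of the 10 genes the gap differed. It was wider in CSA for Acta2 (log2 3.65, SE 0.43, adjusted p 5.4e-12), Tagln (3.34, SE 0.48, adjusted p 2.2e-08), Myh11 (2.42, SE 0.40, adjusted p 1.5e-06) and Des (2.13, SE 0.28, adjusted p 9.9e-10), and it was narrower or turned for Casq2 (-2.95, SE 0.46, adjusted p 2.0e-07). The median of the 10 was 1.53, against -0.01 over all genes. It includes Cnn1 (-3.04, SE 3.56) and Pln (5.26, SE 2.86), which had 1 and 2 pericyte UMIs in the 4 libraries. The gap between preparations could hardly be measured for these 2 genes. Acta2 of the CSA1 pericytes, which enters this comparison, lay at the level of free RNA. For Des both classes contributed, with the gap of smooth muscle over pericytes at 1205 over 268 and 1255 over 315 CPM in CSA and 599 over 588 and 601 over 599 CPM in BA.

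The interaction calls changed under several alternatives. With all Olfr558-led sub-clusters counted as smooth muscle, none of the 10 genes was called (adjusted p 0.094 for Des and 0.20 to 0.85 for the other 4), and DESeq2 called 3, without Acta2 (log2 3.56, adjusted p 0.20) and Tagln (2.53, adjusted p 1.00). Without BA2 the value of Tagln was 0.47 (adjusted p 0.84), and without CSA2 Myh11 (2.15, adjusted p 0.061) and Casq2 (-1.85, adjusted p 0.20) did not pass.

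**Figure D5:**
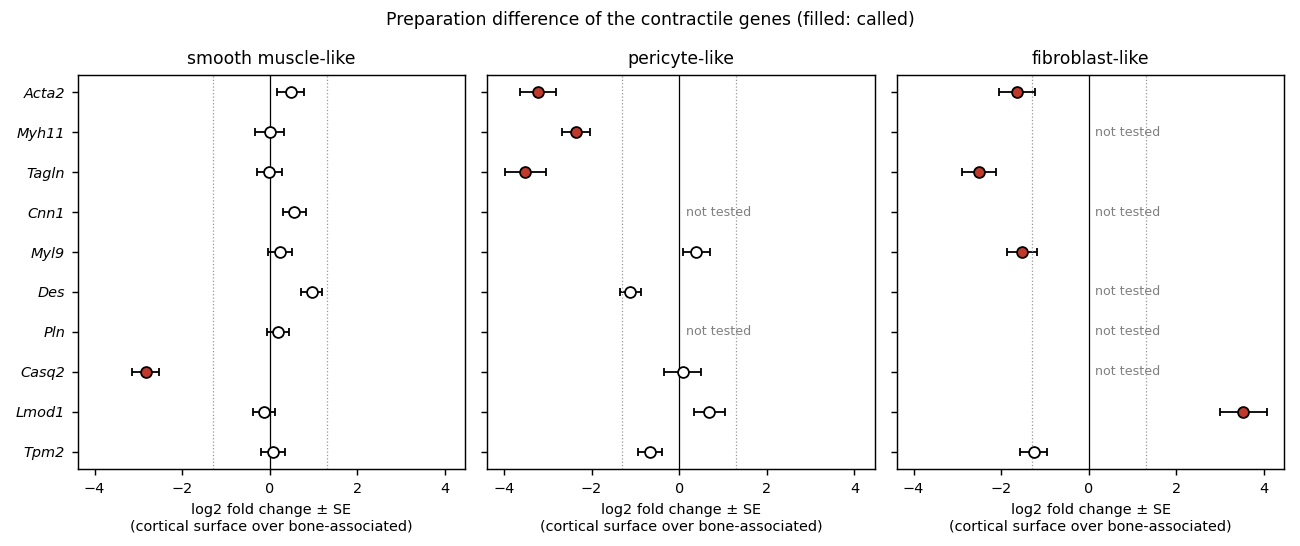
Log2 fold change of CSA over BA libraries for the 10 genes in smooth muscle-like, pericyte-like and fibroblast-like cells (edgeR, error bars show the standard error), with filled points for called genes and dotted lines at the fold of 1.3. Smooth muscle values other than Casq2 lie between -0.13 and 0.96, whereas Acta2, Tagln and Myh11 of pericytes lie at -2.35 or below.

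The Ccl19-led cells (52, 71, 27, 81, 30 and 80 cells in CSA1 to CSA4, BA1 and BA2) were between pericytes and smooth muscle in Acta2, but not in Casq2, Pln, BA Cnn1 or BA Des. Acta2 measured 1070, 1416, 1710 and 616 CPM in CSA and 4765 and 3717 CPM in BA. It was higher than in the pericytes of the same library in 6 of 6 libraries, as were Myh11, Tagln, Lmod1, Myl9 and Tpm2, and for the first 4 of these 6 genes the ratio of means was past the fold of 1.3 (1.51 to 3.99 on the log2 scale). Genes past that fold with 1 direction in all libraries were 3.28% of 7474, with 2.33% higher and 0.95% lower in Ccl19-led cells. The share of all genes with 1 direction in 6 of 6 libraries, at any fold, was not counted. Casq2 was lower in 6 of 6 libraries, with 1 UMI in all 341 Ccl19-led cells against 112 in pericytes, a ratio of 0.00566 (0.000142 to 0.0322). Pln stayed at 0 to 3.71 CPM in Ccl19-led cells.

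Within the Ccl19-led cells the preparations differed, again as a description without a test. Acta2, Tagln (1401, 1414, 2783 and 935 CPM in CSA, 5582 and 3643 CPM in BA) and Myh11 (132, 87.2, 121 and 104 CPM against 1370 and 639 CPM) were lower in CSA without overlap and past the fold, as 8.02% of 8353 genes were, while 5.6% were higher in the same way. Cnn1 was all but missing in CSA (4.56, 1.86, 0 and 0 CPM) and measured 645 and 227 CPM in BA, a ratio of 187 (63.5 to 908). Its BA1 UMIs were in 13 of 30 cells, with 86.2% in 5 cells, and those of BA2 in 17 of 80. Des had the opposite order, at 602, 577, 428 and 562 CPM in CSA and 163 and 275 CPM in BA. Fibroblast markers moved with these genes, summing over 9 markers to 6956 and 4535 CPM in BA and 1436 to 1947 CPM in CSA Ccl19-led cells, with 7 and 4 of the 9 in at least 20% of cells. Pericyte markers went the other way, summing to 1247 and 1945 CPM in BA1 and BA2 and to 2786 to 3778 CPM in CSA. The BA cells thus held more of the fibroblast than of the pericyte markers, so the preparations may not compare the same kind of cell. The part of either marker list in the result was not tested.

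Companion genes of the same machinery, which also stayed out of the clustering, were read from 5 lists. They met the same gene filter in every comparison. A companion that passed it through only 1 of the groups compared could only be called higher there and adds no support. The number of such companions was not counted. Of the thin filament and cytoskeleton list, 10 of 14 genes tested were higher in smooth muscle than in pericytes and none was lower, among them Actg2 (log2 6.33), the enteric smooth muscle actin, and Synm (5.97) and Synpo2 (4.91), which anchor filaments. The myosin phosphorylation list had 6 of 10 higher, including Smtn (3.56) and Mylk (2.72), the kinase that phosphorylates the light chain. Calcium and potassium handling had 5 of 7 higher, led by Ryr2 (9.27), the calcium release channel, and Kcnma1 (5.97) and its subunit Kcnmb1 (3.93). Of the transcription list 3 of 6 were higher, Myocd (4.17), which coactivates serum response factor, Mef2d (1.76) and Srf itself (1.49). The receptor list went the other way, with 0 of 7 higher and 4 lower, Ednrb (-5.42), Agtr1a (-4.21), Adra2a (-4.07) and Tbxa2r (-1.40), which bind endothelin, angiotensin II, adrenaline and thromboxane. The medians of the 5 lists were 2.82, 1.92, 2.31, 1.01 and -1.40, against 0.00 over all genes. Together, 28 of the 44 companion genes tested were called (63.6%), beside 14.7% of all genes, 8.27% higher and 6.41% lower.

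Against fibroblasts the counts higher in smooth muscle were 12 of 14, 9 of 10, 6 of 7, 4 of 6 and 4 of 6 in the same order of lists, with Adra2a (-5.20) the 1 gene that was lower. Together these were 36 of 43 tested (83.7%), beside 24.3% of all genes, 10.4% higher and 13.9% lower. Pericytes were higher than fibroblasts in 4 of 12, 5 of 10, 2 of 4, 1 of 5 and 5 of 8, and lower for Synm (-3.33) and Adra1a (-4.32). The receptor genes Gucy1b1 (5.91) and Gucy1a1 (4.54), subunits of the nitric oxide receptor guanylate cyclase, had the largest of these differences. For pericytes against fibroblasts, 19 of 39 companion genes were called (48.7%), beside 16.9% of all genes, 6.29% higher and 10.6% lower. Between the preparations, Actg2 was the single companion gene called in smooth muscle, higher in CSA (log2 1.71, adjusted p 2.3e-04), of 41 tested (2.44%, beside 5.77% of all genes). In pericytes Csrp1 (-1.92), Mrvi1 (-1.67) and Ednrb (-1.75) were lower and Tbxa2r (2.42) was higher in CSA, 4 of 37 tested (10.8%, beside 6.14% of all genes). Fibroblasts had 10 of 37 called (27.0%, beside 13.5% of all genes), with Mylk (-3.70), Actn1 (-3.38), Kcnma1 (-2.33), Atp2b4 (-1.51), Ednra (-5.19) and Gucy1a1 (-3.14) lower, and Adra1a (8.35), Adra2a (5.47), Itpr1 (1.74) and Mrvi1 (1.31) higher in CSA.

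The gene whose profile was most like the mean of the 10 was Jph2, junctophilin 2, with Pearson's r of 0.909 over 75 sums of 17 cell classes and libraries, among 12095 genes. Dgkb (0.894), Pde3a (0.888), Cap2 (0.884), Foxs1 (0.879), Adamts8 (0.875), Slc2a4 (0.873), Hrc (0.873), Notch3 (0.873) and Dhx58os (0.866) followed, with neighbours too close to be ordered. Of the 10 genes themselves Myh11 lay nearest their mean (r 0.953) and Casq2 (0.665), Pln (0.680) and Cnn1 (0.772) farthest. Sums of 1 library share its depth and free RNA. Jph2 measured 126 CPM in smooth muscle, 16.8 CPM in pericytes and 0.0451 CPM in fibroblasts. Notch3, a receptor of mural cells, measured 666, 987 and 12.4 CPM, so the likeness of Notch3 is to the mural classes together. These are means over libraries with at least 10 cells of the class. For smooth muscle these were CSA1, CSA2, BA1 and BA2, and for pericytes and fibroblasts all 6.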

How the data were processed

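The values deposited by the authors were raw UMI counts of each gene in the barcodes called as cells by Cell Ranger (reads on mm10), without a filter or a normalization of their own. The labels list Cell Ranger 3 and the matrix headers version 6.1.2. For the dissociation, papain and the ventricular-subventricular zone stand in the labels of every library, and collagenase D with dispase II in the paper. Libraries were grouped by their titles.

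The 10 genes and all gene lists were chosen with earlier results of these data known. Barcodes under 500 genes or over 10% mitochondrial UMIs were left out, as were the likeliest doublets (0.8% per 1000 cells). Free RNA was not corrected for. The cells of a preparation were clustered together (2000 variable genes without the 10 genes and their 49 companions, of which 47 are in the files; 30 principal components; 15 neighbours; Leiden resolution 1.5), and mixed clusters were split once. A class name needed 3 leading markers, each in 20% of cells and 2-fold above the rest. The smooth muscle markers of the study include Acta2, Myh11 and Mylk and were not used, so the classes are not the authors' clusters. The Ccl19-led, Plin4-led and Olfr558-led cells were defined after the clusters were seen.

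UMIs were summed per library and class (10 cells or more). For genes with a UMI in over 10% of the cells of a group compared, the sums were TMM-normalized and entered the quasi-likelihood test of edgeR, with the library as a block between classes and without a block between preparations. The standard error is the log2 fold change divided by the root of F. On simulated data, 93.4% of genes changed by 2 on the log2 scale and 100% of those changed by 3 were recovered for smooth muscle against pericytes, 98.0% and 100% for smooth muscle and 95.1% and 100% for pericytes between preparations, and 54.7% and 77.7% for the interaction. The changed genes were drawn from those with at least 100 expected UMIs. All genes had the same dispersion and all sums the same mean profile. These rates therefore do not hold for sparse genes or genes of wider spread. A group of 0 UMIs was given a floor of 3 UMIs, and 1 to 3 UMIs a ratio with a 95% exact counting interval. The genes named were the 10, companions from the 5 lists and the 10 genes most like the mean.

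The alternatives were DESeq2, upper quartile normalization, no gene filter, 1000 genes per cell, no doublet removal, single-library clustering, thinning to 1500 UMIs, no hemoglobin genes, the replicate block, each library left out and 3 class definitions added after the clusters were seen. Positions come from GENCODE (30934 of 31053 identifiers matched) and promoters from RefSeq. The software was edgeR 4.0.16, DESeq2 1.42.0 and limma 3.58.1 in R 4.3.3, and scipy 1.17.1, numpy 2.4.6, pandas 2.3.3, leidenalg 0.10.2, igraph 0.11.9, scikit-learn 1.9.0 and matplotlib 3.10.9 in Python 3.11.15.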

Additional observations from a re-analysis of the deposited data

Results flagged for a closer look

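Among 27 groups of 4 libraries, 3 single libraries lay far from the others of their group. The cut used marks about 1 in 20 groups by chance only where values are normally spread. Myh11 in CSA pericytes measured 81.7 CPM in CSA1 (18 UMIs), against 32.3 to 38.6 CPM in the other 3 libraries. Cnn1 measured 2.69 CPM in the pericytes and 0.621 CPM in the fibroblasts of CSA2, 1 UMI each, with 0 in the other 3 libraries. A group with UMIs in a single library always passes the cut, so the Cnn1 flags were fixed in advance.

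The gap of smooth muscle over pericytes differed between the preparations, by the interaction term in edgeR, for Acta2 (3.65 on the log2 scale, adjusted p 5.4e-12), Myh11 (2.42, adjusted p 1.5e-06), Tagln (3.34, adjusted p 2.2e-08) and Des (2.13, adjusted p 9.9e-10), wider in CSA, and for Casq2 (-2.95, adjusted p 2.0e-07).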

How the results depend on the processing

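Of 932 fold changes of the 10 genes under alternatives, 834 kept their direction and side of the threshold. For the 39 called results, 552 of these values were unchanged in that sense, 46 lost the call and 1 reversed, Lmod1 in fibroblasts between preparations, at -0.47 when every library was clustered alone. Levels in CPM moved by more than 1 SD in 49 of 300 cases.

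The number of the 10 genes called was 4 for pericytes against fibroblasts with thinned cells, 0 for smooth muscle between preparations with all Olfr558-led sub-clusters as smooth muscle, and, for pericytes between preparations, 0 when every library was clustered alone, 5 with the Ccl19-led cells as pericytes and 1 to 3 with a library left out. The interaction called 3 with DESeq2, 0 with all Olfr558-led sub-clusters and 3 to 5 with a library left out.

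Thinned cells gave 616, 986, 714, 159, 184, 548 and 91 called genes of all genes in the 7 comparisons, in the order smooth muscle against pericytes, smooth muscle against fibroblasts, pericytes against fibroblasts, preparations in smooth muscle, pericytes and fibroblasts, and interaction, against 1191, 2323, 1527, 479, 435, 1297 and 289. Thinning removes counts, so fewer genes could pass. Without the gene filter smooth muscle between preparations gave 758, DESeq2 gave 248 for pericytes and 94 for the interaction, the Ccl19-led cells as pericytes gave 850 and 520, and all Olfr558-led sub-clusters 92 for the interaction. Leaving a library out gave 233 to 470 for pericytes and 165 to 291 for the interaction. The cause of these shifts was not tested.

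Values that changed sign, of which Cnn1 at 7.59 was called (adjusted p 2.2e-10) and the others were not, were these. For smooth muscle against pericytes, Casq2 was 0.99 with Ccl19-led cells as pericytes, 0.15 with all Olfr558-led sub-clusters and -1.25 to 0.23 with a library left out. Tagln was -0.44 to 0.86 for pericytes against fibroblasts with a library left out, the lowest without BA2. For smooth muscle between preparations, all Olfr558-led sub-clusters gave Acta2 -0.11, Myl9 -0.23, Pln -0.30 and Tpm2 -0.44, and Plin4-led cells alone gave Tpm2 -0.20. There Myh11 was 0.073 with upper quartile normalization, 0.050 with 1000 genes per cell, 0.18 thinned, 0.029 with the block and -0.37 to 0.50 with a library left out, Tagln was 0.070, 0.050, 0.12 and -0.082 to 0.083 in the same order without the block, Lmod1 -0.25 to 0.0082 and Tpm2 -0.10 to 0.21 with a library left out. For pericytes between preparations, the Ccl19-led cells as pericytes gave Myl9 -0.17, Des 0.23 and Lmod1 -0.68, and Casq2 was -0.022 with DESeq2, -0.055 without doublet removal and -0.37 to 0.42 with a library left out. In the interaction, Cnn1 was 0.69 when every library was clustered alone, 0.74 thinned, 7.59 with Ccl19-led cells as pericytes and -3.93 to 0.86 with a library left out, Myl9 0.053, 0.089, 0.42 and -0.62 to 0.28, Lmod1 0.53 with Ccl19-led cells as pericytes, and Tpm2 -0.066 with all Olfr558-led sub-clusters.

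Libraries with the same number are not known to be paired, and only 2 numbers occur in both preparations. Their deviations correlated at 0.42 in smooth muscle, 0.14 in pericytes and 0.19 in fibroblasts. With the replicate number as a block, 506, 421 and 1432 genes were called between preparations in these 3 classes, and 1, 3 and 3 of the 10 genes. Without the library block, 1060, 2280 and 1359 genes were called between classes, and 9, 10 and 5 of the 10 genes. Leaving 1 library of a preparation out leaves smooth muscle with a lone sample that is assumed to vary like the others, and the 17 pericytes of BA1 limit what that library can show.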
